A study of Mus musculus with 9 samples.

Results

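The replication-dependent histone genes are described here in mouse extra-embryonic endoderm stem (XEN) cells with a deletion upstream of Xist, the noncoding RNA gene of X inactivation. They were taken as every gene whose GENCODE M21 symbol begins with Hist1h, Hist2h, Hist3h or Hist4h, which gave 70 of the 55401 genes in the count table. The 70 members comprised 6 H1, 20 H2A, 19 H2B, 12 H3 and 13 H4 genes. Of these, 56 lie in the Hist1 cluster on chromosome 13, 10 in Hist2 on chromosome 3, 3 in Hist3 on chromosome 11 and 1, Hist4h4, on chromosome 6. There were 67 protein-coding genes and 3 pseudogenes (Hist1h2aj, Hist1h2al and Hist3h2bb-ps). RNA-seq read counts were compared in 2 libraries with the deletion on the paternal X (DXp), 2 libraries homozygous for it (DXp_DXm) and 3 wild-type libraries (WT_EV). All 3 groups are female XEN cells, a stem cell line that models the extra-embryonic endoderm, from a cross of Mus musculus molossinus with Mus musculus, and no treatment is given. The sample labels call the deletions paternal and homozygous Xist deletions, and the series title places the deletion upstream of Xist. The titles name both DXp libraries D1 and both DXp_DXm libraries D3, so genotype and cell line cannot be told apart if these are single lines. Nothing in the labels says that the WT_EV libraries came from separate cultures, and p-values then measure only the spread between these libraries. The further wild-type clones of the series were not analysed here, because no member has a row in their table as held.

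Replication-dependent histone genes supply the core histones H2A, H2B, H3 and H4, which form the nucleosome, and the linker histone H1, when a cell copies its DNA in S phase. Most of their mRNAs have no poly(A) tail. They end instead just past a short hairpin, the histone stem-loop, which is bound by the protein SLBP and cut with the help of the U7 snRNP, and which couples their stability to DNA synthesis. Some of these genes also give longer, polyadenylated transcripts, mostly in differentiating or resting cells.

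The stem-loop is shown first, because it marks the transcripts that end without a poly(A) tail and because the members differ in how far their annotated transcript runs past it. Each line gives the sense strand from GENCODE M21 (GRCm38), 5′ to 3′, with the 16 bases of the hairpin in capitals and 5 bases on each side. The capitals pair over the outer 6 bases on either side of the loop.
Hist1h1c (H1), chr13:23739507-23739532, plus strand: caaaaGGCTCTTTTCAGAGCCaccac
Hist2h2ac (H2A), chr3:96220413-96220438, minus strand: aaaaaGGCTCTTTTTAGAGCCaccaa
Hist3h2a (H2A), chr11:58955167-58955192, plus strand: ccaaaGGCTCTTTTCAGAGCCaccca
Hist1h2bj (H2B), chr13:22043633-22043658, plus strand: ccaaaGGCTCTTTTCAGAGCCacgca
Hist1h2bg (H2B), chr13:23571838-23571863, plus strand: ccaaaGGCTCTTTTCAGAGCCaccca
Hist1h3e (H3), chr13:23561898-23561923, minus strand: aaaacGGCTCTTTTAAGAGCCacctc
Hist1h4c (H4), chr13:23698084-23698109, minus strand: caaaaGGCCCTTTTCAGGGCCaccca
Hist1h4a (H4), chr13:23760795-23760820, minus strand: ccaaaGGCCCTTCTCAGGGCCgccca

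A hairpin of this kind (letters GGNNNTTNTNANNNCC with 6 paired bases in the stem, G-U pairs allowed, sense strand, searched downstream of the stop codon in members) was found in 46 of the 67 coding members. The same pattern lies anywhere in a transcript of 61 of 21884 other protein-coding genes, or 0.279%. The form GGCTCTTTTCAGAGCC occurred in 26 members (3 H1, 10 H2A, 8 H2B and 5 H3) and in no H4 gene. H4 genes carried other stems, with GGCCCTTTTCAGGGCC in 7 of them. The loop began 21 to 58 bases after the stop codon, with a median of 31. In 23 members the annotated transcript ended within 100 bases of the hairpin, and in 23 it ran further. The longest runs past the hairpin among the genes printed above were 1643 bases in Hist3h2a and 840 in Hist1h1c, against 57 in Hist2h2ac and 23 in Hist1h2bj. In 17 coding members without the pattern the annotation stopped at or near the stop codon, so no match there says only that these letters are not in the model. The remaining 4 coding members without it (Hist1h2bc, Hist1h2bq, Hist1h2br and Hist2h2be) had models that ran 742 to 2192 bases past the stop codon.

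Promoters of 61 members were matched in RefSeq (GRCm38.p6, 250 bases before to 50 after the annotated start), and 3 are printed as examples. Each is from the matched member of its family with the highest mean level in WT_EV. Not all letters marked are common in the family, as the H4 example holds CCAAT and lacks TATAAA. Capitals mark 5 motifs, each searched on both strands and none overlapping another in the printed promoters. They are the TATA box (TATAAA), the CCAAT box (CCAAT, or its reverse complement), the octamer bound by Oct1 (ATTTGCAT), the H1 box (AAACACA) and the H4 element (GGTCCG).
Hist1h1e (H1), chr13:23622509-23622808, minus strand: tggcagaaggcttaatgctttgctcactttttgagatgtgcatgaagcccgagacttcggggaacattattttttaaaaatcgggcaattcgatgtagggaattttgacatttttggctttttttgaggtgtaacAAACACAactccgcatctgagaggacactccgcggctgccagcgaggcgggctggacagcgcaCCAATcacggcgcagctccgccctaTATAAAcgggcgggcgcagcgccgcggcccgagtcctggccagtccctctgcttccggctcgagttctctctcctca
Hist1h2bb (H2B), chr13:23746484-23746783, plus strand: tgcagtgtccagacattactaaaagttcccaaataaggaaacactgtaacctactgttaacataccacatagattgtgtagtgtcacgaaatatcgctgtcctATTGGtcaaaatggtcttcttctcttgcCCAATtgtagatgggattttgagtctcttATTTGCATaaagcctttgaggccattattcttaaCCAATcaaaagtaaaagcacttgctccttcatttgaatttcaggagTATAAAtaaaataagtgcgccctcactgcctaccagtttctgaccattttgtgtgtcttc
Hist1h4c (H4), chr13:23698409-23698708, minus strand: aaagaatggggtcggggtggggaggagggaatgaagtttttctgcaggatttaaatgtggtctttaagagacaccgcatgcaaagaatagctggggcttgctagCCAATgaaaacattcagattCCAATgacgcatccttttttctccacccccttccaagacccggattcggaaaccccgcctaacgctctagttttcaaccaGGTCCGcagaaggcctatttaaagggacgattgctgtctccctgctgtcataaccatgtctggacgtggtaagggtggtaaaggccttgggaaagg

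CCAAT occurred in all matched promoters of H1 (6), H2A (17), H2B (16) and H3 (10), but in 3 of 12 for H4, against 37.4% of all 32851 promoters. GGTCCG, part of the H4 element bound by Hinfp, was in 11 of 12 H4 promoters, 1 H2B and 1 H3 promoter, against 8.25% of all. ATTTGCAT was in 7 of 17 H2A and 6 of 16 H2B promoters and in no H1, H3 or H4 promoter, against 1.74% of all. AAACACA was in 5 of 6 H1 promoters, 2 H2A and 2 H2B promoters, against 7.18%. TATAAA was in 4 of 6 H1, 11 of 17 H2A, 8 of 16 H2B, 4 of 10 H3 and 8 of 12 H4 promoters, against 13.6%. These matches are a description of the letters and not of binding.

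Library totals ran from 24586135 to 29335803 counts in the deletion libraries and from 14352719 to 19833044 in WT_EV. The labels name no step of poly(A) selection or of ribosomal RNA removal, and 2 makes of stranded kit are named without saying which library used which. Of 11 listed RNAs other than histone mRNAs that lack a poly(A) tail, 9 were tested, and all 9 were lower in both deletion groups. Rn7sk, the RNA of the 7SK particle, had 0.153 and 0.154 CPM (counts scaled to library size with TMM factors) in DXp and 0.0829 and 0.275 CPM in DXp_DXm, against 14352, 8212 and 9429 CPM in WT_EV. How RNA was selected and the genotype cannot be told apart in this design. XEN markers summed to 11745 and 24088 CPM in DXp, 16520 to 18640 CPM in DXp_DXm and 26305 to 34785 CPM in WT_EV. None of the 11 was at 0 over a group, although Col4a1 had no count in DXp replicate 1. By gene they went both ways, with 3 called lower and 2 higher in DXp and a median log2 change of -0.02. In DXp_DXm 4 were called lower and 2 higher, with a median of -0.33. The shares of all genes called are given below. Markers of other cell types summed to at most 3.69 CPM in deletion libraries and 4.14 to 8.48 CPM in WT_EV, and their part in the histone result was not tested.

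Histone counts nearly disappeared from the deletion libraries. The members summed to 466 and 2011 counts in DXp and 329 and 611 in DXp_DXm, against 192778, 195130 and 354560 in WT_EV. As a share of all counts this was 0.00190% and 0.00686% in DXp and 0.00129% and 0.00224% in DXp_DXm, against 1.26%, 0.984% and 2.47% in WT_EV. The groups did not overlap. Across the 4 deletion and 3 WT_EV libraries the mean log2 difference in share was -9.20, a 588-fold lower share in the deletion libraries (exact permutation test, two-sided, p = 0.0571, the smallest p this design allows). In bulk RNA, fewer cells that express these genes and less RNA per cell cannot be told apart. Neither can be told apart here from a difference in how RNA was selected.

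The loss in summed counts was uneven between families, and in H2A and H2B the residual sums rest largely on 1 gene each. Summed H3 mRNA was 0.810 ± 0.929 CPM in DXp and 0.300 ± 0.131 CPM in DXp_DXm, against 2374 ± 1517 CPM in WT_EV (SD, n = 2, 2 and 3), so the WT_EV mean was 2930 and 7913 times the deletion means. For H4 the sums were 2.83 ± 1.18 and 1.27 ± 0.0941 CPM against 4702 ± 2280 CPM, ratios of 1661 and 3705. For H1 the libraries had 4.50 and 24.3 CPM in DXp and 3.52 and 6.48 CPM in DXp_DXm, against 2375, 1820 and 4833 CPM in WT_EV, ratios of 209 and 602. The H2A sums, 11.4 ± 5.27 and 2.62 ± 0.0433 CPM against 1614 ± 1082 CPM, gave ratios of 141 and 615. Hist3h2a alone held 360 of the 544 H2A counts in DXp and 86 of the 130 in DXp_DXm, so these ratios do not describe the other H2A genes. H2B kept the most, with 21.3 ± 16.7 and 9.63 ± 5.05 CPM against 1749.5 ± 417 CPM and ratios of 82.3 and 182. Most of its residual counts came from Hist1h2bc, whose counts are given below. The H3 ratio for DXp rests on 3 and 38 counts, and was 15480 without DXp replicate 2, 1618 without DXp replicate 1 and 1864 without WT_EV replicate 3, which when left out gave 5033 for DXp_DXm. Leaving out DXp replicate 2 or 1 also gave 669 or 124 for H1 and 185 or 52.9 for H2B in DXp. Without WT_EV replicate 3 the H2A ratios were 87.1 and 379.9, and without DXp_DXm replicate 2 the H2B ratio in DXp_DXm was 289. These settings were added after seeing the data. The make-up of the residual histone counts differed from that in WT_EV. H2B supplied 41.1 ± 2.03% of histone counts in DXp and 49.7 ± 7.51% in DXp_DXm, against 14.2 ± 3.43% in WT_EV, and H4 supplied 6.55 ± 2.58% and 7.19 ± 2.30% against 35.2 ± 1.04%. H3 supplied 1.27 ± 0.881% and 1.58 ± 0.0827%, against 16.9 ± 2.08%. In each of these 3 families no deletion library overlapped a WT_EV library. H1 overlapped, with 18.9% and 31.3% in DXp and 25.8% and 27.0% in DXp_DXm against 21.9% to 22.7% in WT_EV. H2A overlapped too, with 32.4% and 19.5% in DXp and 19.5% and 10.8% in DXp_DXm, against 10.7%, 10.1% and 13.4% in WT_EV.

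**Figure D1:**
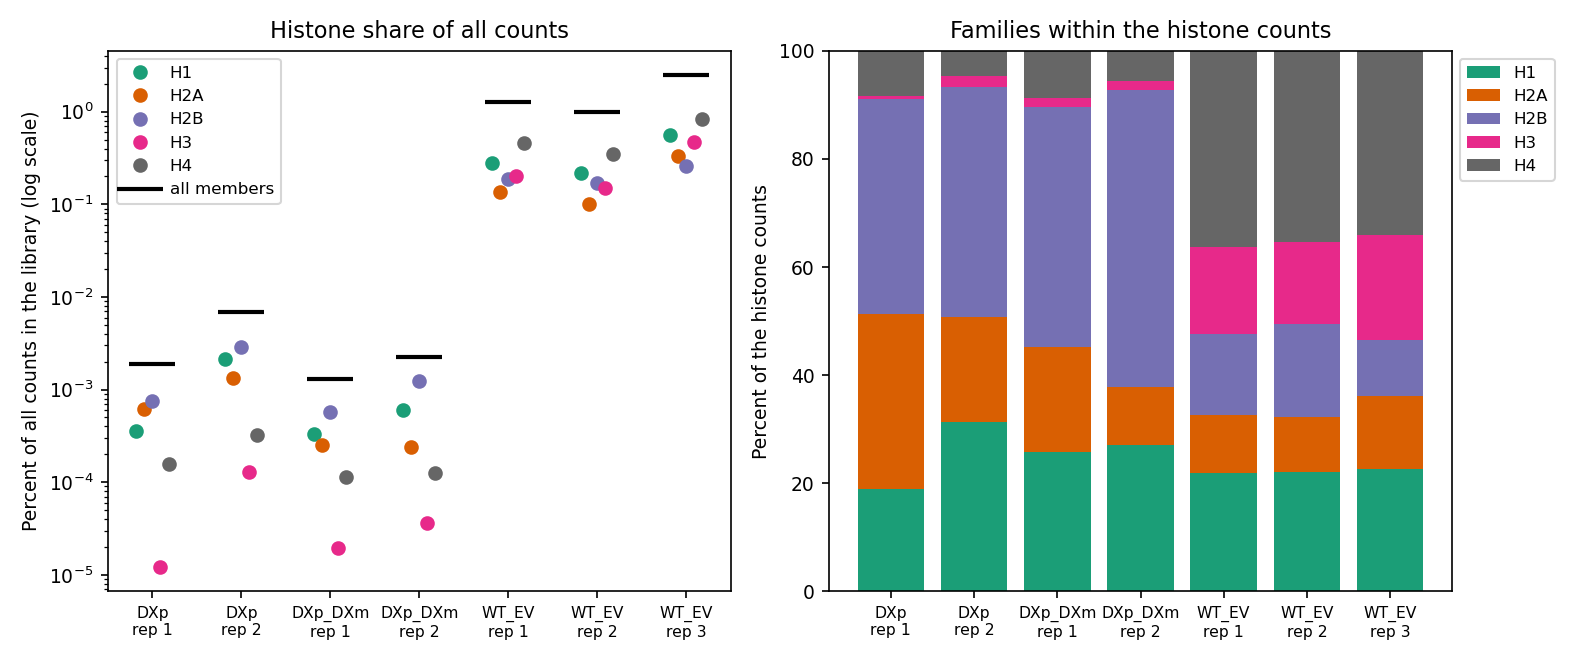
Left, the share of all counts taken by each histone family (points) and by all 70 members (bars) in each library, on a log axis in percent. Right, the families as percent of the histone counts of each library; H2B fills 39.7% to 55.0% of the bar in the 4 deletion libraries and 10.4% to 17.1% in the 3 WT_EV libraries.

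Of the 70 members, 63 passed the filter on low counts and were tested with the edgeR quasi-likelihood test, adjusted over all 15331 genes tested. In DXp against WT_EV 59 were lower and 1 was higher, where 40.1% of all genes tested were called lower and 32.2% higher (72.3% either way). In DXp_DXm against WT_EV 60 were lower and none higher, where 36% of all genes were lower and 30.9% higher (66.8% either way). The 2 comparisons share the WT_EV libraries. With members that had no count in a deletion group set at a bound (3 counts over the group), the median log2 value was -9.36 in DXp and -9.18 in DXp_DXm. Of the 63 tested members, 26 in DXp and 37 in DXp_DXm were at the bound, so these medians depend on it and do not rank the groups. Such members passed the filter only through other libraries, so a call of lower was the only one open to them. The counts of lower members are given as a description beside the shares of all genes. Fitted medians without the bound were -10.03 and -11.34, against fitted medians over all genes tested of -0.35 and -0.15. Members with no count numbered 30 of the 68 counted in WT_EV in DXp, and 40 in DXp_DXm. A further 18 and 12 members had 1 to 3 counts, and 20 and 16 had more. With offsets for GC content and length 50 members were lower and none higher in DXp, and 56 lower in DXp_DXm.

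The H1 genes, which encode linker histones, had 4 tested members, and all 4 were lower in both deletion groups. Hist1h1a (chr13:23763666-23764406, plus strand) had 1 and 2 counts in DXp and 0 and 1 in DXp_DXm, against 12190, 12739 and 22663 in WT_EV. Its WT_EV level was 13047 times that in DXp (95% counting interval 4464 to 63264). Hist1h1e, which overlaps Hist1h2be on the same strand, had 1 and 18 counts in DXp and 4 and 16 in DXp_DXm, against 15324, 15401 and 27543 in WT_EV. The change in Hist1h1e was -11.34 in both comparisons on the log2 scale (SE 0.98 in each, adjusted p 1.52e-05 and 2.39e-05, edgeR). Hist1h1c retained far more. It had 81 and 476 counts in DXp and 62 and 115 in DXp_DXm, against 10886, 11206 and 17652 in WT_EV. Its log2 change was -5.98 in DXp (SE 0.76, adjusted p 1.26e-04, edgeR) and -7.65 in DXp_DXm (SE 0.83, adjusted p 7.13e-05). Hist1h1d had 5 and 131 counts in DXp and 19 and 32 in DXp_DXm, against 3806, 3791 and 12646 in WT_EV. Of the H1 genes that were not tested, the testis gene Hist1h1t had at most 40 counts in any library and Hist1h1b had 27 counts in WT_EV replicate 3 and none elsewhere.

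Among 16 tested H2A genes 15 were lower in each deletion group. Hist2h2ac, of the Hist2 cluster, had 1 and 0 counts in DXp and none in DXp_DXm, against 6350, 5382 and 15806 in WT_EV. Its WT_EV level was 23223 times that in DXp (counting interval 4168 to 917268). Hist1h2ab had 2 and 1 counts in DXp and none in DXp_DXm, against 2698, 3168 and 6340 in WT_EV, and was at least 3667-fold lower in DXp_DXm. Hist1h2ac was the H2A gene of Hist1 with the most residual counts. It had 29 and 133 in DXp and 27 and 13 in DXp_DXm, against 2761, 3213 and 6078 in WT_EV, and its log2 change was -6.02 (SE 0.75, adjusted p 1.08e-04, edgeR) and -8.06 (SE 0.85, adjusted p 5.77e-05). Of the 20 H2A genes, 11 had no count in DXp although counted in WT_EV, and 14 had none in DXp_DXm.

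All 19 H2B genes were tested; 17 were lower in DXp and 18 in DXp_DXm. Hist1h2bb had 1 and 4 counts in DXp and 3 and 2 in DXp_DXm, against 7285, 8798 and 9605 in WT_EV, a log2 change of -11.95 (SE 0.51, adjusted p 3.24e-06, edgeR) and -12.05 (SE 0.51, adjusted p 3.01e-06). Hist1h2bj had 0 and 1 counts in DXp and none in DXp_DXm, against 6104, 6125 and 5994 in WT_EV. Hist1h2bc had the most counts of any member in both deletion groups. It had 120 and 573 in DXp and 88 and 244 in DXp_DXm, against 5947, 7247 and 6686 in WT_EV, and its log2 change was -4.61 (SE 0.64, adjusted p 2.00e-04, edgeR) and -5.71 (SE 0.68, adjusted p 1.10e-04). Hist1h1c and Hist1h2bc, a pair chosen after their values were seen, supplied 47.6 ± 6.39% of histone counts in DXp and 52.2 ± 9.31% in DXp_DXm, against 8.35 ± 1.34% in WT_EV. Hist1h2be, whose model runs far past its hairpin, had 16 and 57 counts in DXp and 19 and 29 in DXp_DXm, against 1602, 1995 and 2362 in WT_EV. Hist1h2ba, an H2B gene known from testis and chosen after its values were seen, had no count in a deletion library, against 225, 345 and 287 in WT_EV.

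The H3 genes had 11 tested members, of which 10 were lower in each deletion group. Hist1h3e had no count in the 4 deletion libraries, against 6883, 6544 and 18297 in WT_EV. Hist2h3b likewise had none, against 7688, 5443 and 10498, but all of its 50-base words also occur in other genes. Hist1h3b had 0 and 1 counts in DXp and 0 and 1 in DXp_DXm, against 5965, 5877 and 11868 in WT_EV. Its WT_EV level was 19632 times that in DXp (counting interval 3524 to 775415) and 21408 times that in DXp_DXm (3842 to 845575). All 12 H3 genes together had 3 and 38 counts in DXp and 5 and 10 in DXp_DXm.

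All 13 H4 genes were tested and were lower in both deletion groups. In WT_EV, H4 genes held the highest levels per kilobase of annotated transcript, with means of 1503 CPM per kb for Hist1h4a and 1273 CPM per kb for Hist1h4c. Hist1h4a had 0 and 1 counts in DXp and the same in DXp_DXm, against 13930, 11725 and 19201 in WT_EV. Hist1h4c had 3 and 11 counts in DXp and 1 and 2 in DXp_DXm, against 16103, 15167 and 26426 in WT_EV, a log2 change of -11.73 in DXp (SE 0.67, adjusted p 4.46e-06, edgeR). Hist1h4i changed by -9.59 (SE 0.53, adjusted p 4.46e-06, edgeR) and -10.08 (SE 0.54, adjusted p 5.37e-06). It had 16 and 23 counts in DXp and 13 and 17 in DXp_DXm, against 9554, 10637 and 16649 in WT_EV. Hist4h4, the gene outside the 3 clusters, had 5 and 21 counts in DXp and none in DXp_DXm, against 6325, 6425 and 10253 in WT_EV. One H4 gene, Hist1h4d, overlapped between groups, with 11 and 28 counts in DXp against 50, 17 and 577 in WT_EV.

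**Figure D2:**
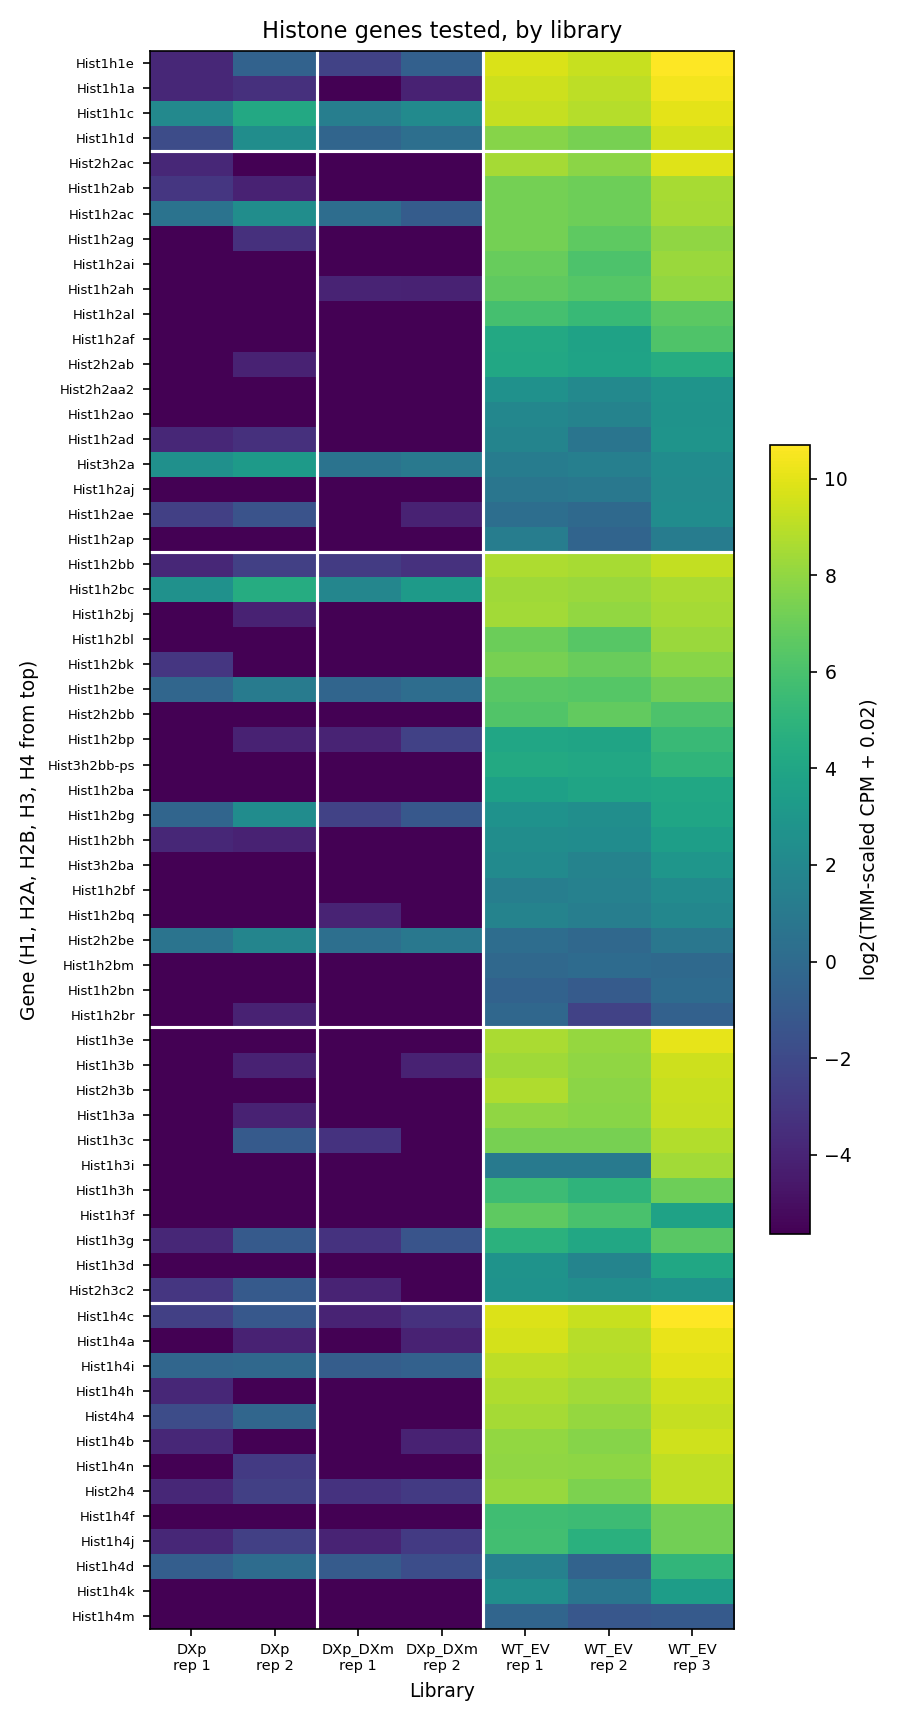
Level of the 63 tested members (rows, by family and then by WT_EV mean) in the 7 libraries (columns), as log2 of the TMM-scaled CPM plus 0.02. The 4 deletion columns are dark in nearly all rows; Hist3h2a and Hist2h2be stand out as rows of like colour across all 7 libraries.

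By cluster, Hist1 had 49 of 51 tested members lower in DXp and 50 lower in DXp_DXm, and Hist2 had 7 of 8 lower in each. The 2 members of Hist3 other than Hist3h2a, Hist3h2ba and Hist3h2bb-ps, had no count in a deletion library. Because of Hist3h2a, the Hist3 cluster took 18.4 ± 8.84% of histone counts in DXp and 9.56 ± 1.95% in DXp_DXm, against 0.247 ± 0.0370% in WT_EV.

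Some tested members, 4 in all, were not called lower in at least 1 comparison. Hist3h2a (chr11:58954685-58956830, plus strand), an H2A gene beside Trim17 and overlapping it on the same strand, had 5.88 and 9.46 CPM in DXp and 1.49 and 1.96 CPM in DXp_DXm, against 2.31, 2.62 and 4.92 CPM in WT_EV. Both DXp libraries lay above and both DXp_DXm libraries below the WT_EV libraries. Its log2 change in DXp was 1.23 (SE 0.47), a call of higher (adjusted p 0.0374, edgeR), and its value in DXp_DXm was -0.92 (SE 0.50, adjusted p 0.128). The call in DXp was lost without DXp replicate 2 (0.86, adjusted p 0.237), without WT_EV replicate 1 (1.01, adjusted p 0.125) or 2 (1.06, adjusted p 0.121) and with offsets for GC content and length (0.91, adjusted p 0.113). With those offsets Hist3h2a was lower in DXp_DXm (-1.32, adjusted p 0.0481).

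Hist2h2be (chr3:96221119-96223738, plus strand) is an H2B gene with a long model, no hairpin match and no 50-base word in common with another gene. It had 1.53 and 3.44 CPM in DXp and 1.24 and 1.81 CPM in DXp_DXm, against 1.13, 0.886 and 1.80 CPM in WT_EV, and the groups overlapped. Its log2 change was 0.98 in DXp (SE 0.56, adjusted p 0.140, edgeR) and 0.27 in DXp_DXm (SE 0.57, adjusted p 0.690). Hist1h2bg (chr13:23571396-23572013, plus strand), another H2B gene, had 0.767 and 4.98 CPM in DXp and 0.166 and 0.432 CPM in DXp_DXm, against 6.47, 5.40 and 15.7 CPM in WT_EV. Its value in DXp was -1.66 (SE 0.79, adjusted p 0.0808, edgeR), and it passed at -3.56 without DXp replicate 2 (adjusted p 0.00933), while offsets for GC content and length turned its sign without a call (0.96, adjusted p 0.304). DESeq2 called it lower in DXp (-1.56, adjusted p 0.0444). It was lower in DXp_DXm (-4.90, SE 0.97, adjusted p 0.00151). The fourth, the H3 gene Hist1h3i (chr13:21782960-21783370, minus strand), had no count in a deletion library and 2.03, 1.98 and 344 CPM in WT_EV. It passed in neither comparison (adjusted p 0.152 and 0.156, edgeR), and passed in both when WT_EV replicate 3 was left out (adjusted p 4.48e-04 and 5.09e-04).

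The residual histone counts came almost wholly from members with a long annotated transcript. In percentage points, the make-up differed most from WT_EV in the long models without a hairpin and in the models that end near a hairpin. Members were grouped by model, with a limit of 100 bases past the hairpin chosen after the values were seen. The 23 members with a hairpin near the transcript end summed to 50 counts in DXp and 25 in DXp_DXm, against 239266 in WT_EV. The 23 members with a hairpin and a longer model summed to 1610 and 502 counts, against 359504. The 4 coding members with a long model and no hairpin summed to 813 and 409 counts, against 20158, and the 17 short models without a hairpin to 4 and 4, against 118461. As a share of the histone counts of a library, the 4 long models without a hairpin had 32.6 ± 0.551% in DXp and 41.8 ± 7.99% in DXp_DXm, against 2.94 ± 0.937% in WT_EV. Models with a hairpin near the end had 2.07 ± 0.111% and 2.61 ± 0.248%, against 32.2 ± 0.995%. Short models without a hairpin had 0.182 ± 0.0463% in DXp and 0.397 ± 0.132% in DXp_DXm, against 15.6 ± 1.35% in WT_EV. Long models with a hairpin held much of the count in every group, with 65.2 ± 0.394% in DXp and 55.2 ± 8.37% in DXp_DXm, against 48.5 ± 0.982% in WT_EV, and DXp_DXm replicate 2 (49.3%) lay within the WT_EV range of 47.7% to 49.6%. Of the tested members with a long model, 22 of 25 were lower in DXp, and of the others 37 of 38.

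Across 60 tested coding members, the level in DXp as percent of the WT_EV mean had a Spearman rho of 0.63 with the annotated bases past the stop codon, -0.58 with GC content and 0.07 with the WT_EV level. In DXp_DXm the values were 0.59, -0.54 and 0.09. These are descriptions over genes that share libraries and partly share sequence. The level relative to WT_EV had a median of 0.137% in DXp and 0.0912% in DXp_DXm over the 21 tested members with a hairpin and a long model. Over the 22 with a hairpin near the end it was 0.00572% in DXp and 0 in DXp_DXm, where 16 of them had no count. Of 15 tested members with an AATAAA or ATTAAA poly(A) signal in the last 50 annotated bases 13 were lower in each deletion group, and of 48 without one 46 and 47 were lower.

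**Figure D3:**
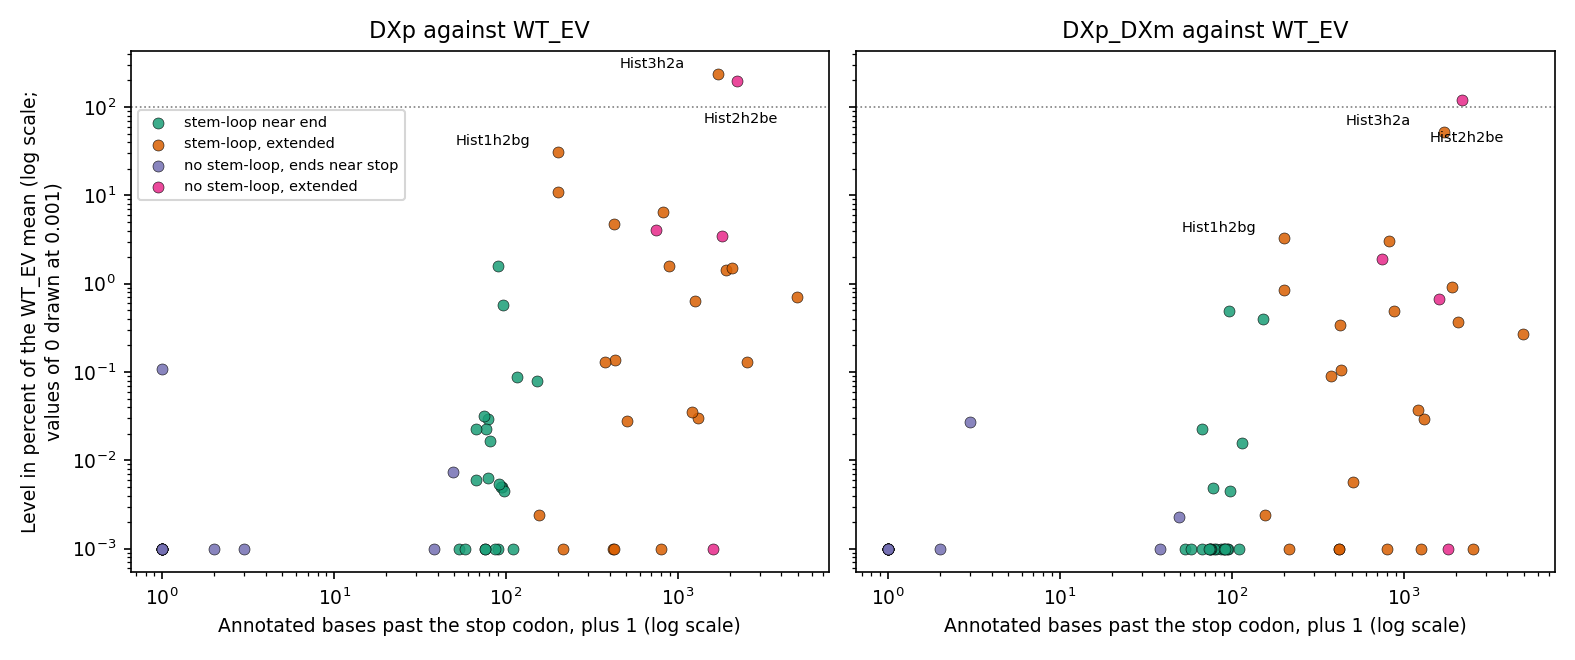
Level of the 60 tested coding members in DXp (left) and DXp_DXm (right) as percent of the WT_EV mean, on a log axis with 0 drawn at 0.001, against annotated bases past the stop codon plus 1 (log axis); colours give the gene model. Models that end near the stop codon or hairpin lie low, and Hist3h2a, Hist2h2be and Hist1h2bg lie highest in DXp, at 234%, 196% and 31.3%.

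The ranking of members in the deletion libraries differed from that in WT_EV. Over the 63 tested members, Spearman's rho of the CPM was 0.93 to 0.99 between WT_EV libraries, 0.69 to 0.84 between deletion libraries and 0.16 to 0.31 between a deletion and a WT_EV library, given as a description. Of these members 26 had no count in DXp and 37 none in DXp_DXm, so many ranks there are ties or rest on few counts. The residual signal differed between replicates. All 20 members with over 3 counts in DXp were higher in DXp replicate 2 than in replicate 1, by a median ratio of 3.02, and in DXp_DXm 13 of 16 were higher in replicate 2, by a median ratio of 1.52.

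Between the deletions, 0 of 63 members were called in DXp_DXm against DXp by edgeR, where 0.444% of all genes tested were called, 0.163% lower and 0.28% higher. At an unadjusted p under 0.05 there were 8, all lower in DXp_DXm, with no share of all genes at that limit to set beside them. Neither this count nor its direction is read as a result. DESeq2 called 5 of 58, all lower, where it called 4.79% of all genes tested lower and 4.23% higher. The lowest p belonged to Hist4h4, with its 5 and 21 counts in DXp and none in DXp_DXm (unadjusted p 0.00181, adjusted p 0.0702, edgeR). Hist3h2a followed at -2.15 (adjusted p 0.0783, edgeR), then Hist1h2bg at -3.24 (adjusted p 0.110) and Hist2h3c2 at -3.53 (adjusted p 0.122). Without the filter on low counts edgeR called 7 of 68 members, all lower in DXp_DXm, where 2.11% of all genes were lower and 3.07% higher. With WT_EV replicate 3 left out of the fit, Hist4h4 (-6.67, adjusted p 0.0395, edgeR) and Hist3h2a (-2.15, adjusted p 0.0473) were called lower in DXp_DXm, 2 of 62 members tested. Of all genes tested in that fit, 1.47% were lower and 1.71% higher. The member counts are given as a description beside these shares.

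The WT_EV libraries themselves differed in histone level. Replicate 3 had a summed histone level 2.23 times the mean of replicates 1 and 2, and was the highest of the 3 in 56 of 63 tested members, against 36.5% of all genes tested. The median ratio of replicate 3 to the mean of the others was 2.05 over the tested members and 0.889 over 21 DNA replication genes. H2A genes summed to 2.86 times and H2B genes to 1.46 times the others. A few Hist1 genes, chosen after their values were seen, were nearly confined to replicate 3. Hist1h2an had 1914 counts in WT_EV replicate 3 and 0 and 1 in replicates 1 and 2. Its neighbour Hist1h3i had 5740 against 36 and 47, and Hist1h1b beside them 27 against 0 and 0. Hist1h3f went the other way, with 231 counts in replicate 3 and 1798 and 1522 in replicates 1 and 2. Hist1h2an and Hist1h3i share 85.8% and 87.6% of their 50-base words with other genes, and Hist1h1b shares none. Without WT_EV replicate 3 the counts of lower members were 58 of 62 in DXp and 60 of 62 in DXp_DXm.

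**Figure D4:**
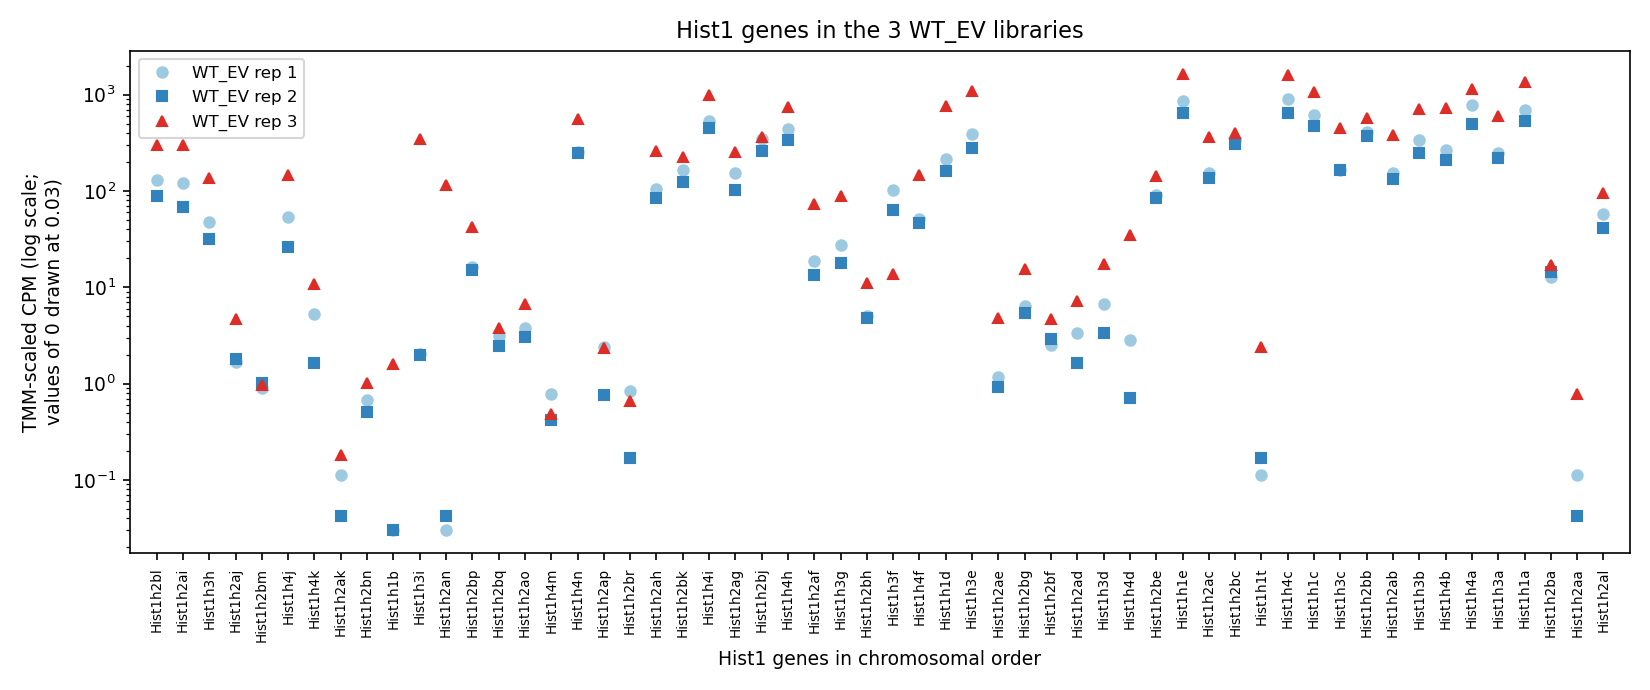
TMM-scaled CPM (log axis, 0 drawn at 0.03) of the 56 Hist1 genes in chromosomal order in the 3 WT_EV libraries. Replicate 3 lies above the others at 51 genes, far above them at Hist1h3i and Hist1h2an, and below them at Hist1h3f.

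Genes around histone supply were counted from 5 lists with 73 tested genes, of which 39 were lower and 23 higher in DXp and 35 lower and 25 higher in DXp_DXm. With offsets for GC content and length these were 36 lower and 8 higher in DXp, and 30 lower and 6 higher in DXp_DXm. Beside the 73 genes stand the shares of all genes tested, 40.1% lower and 32.2% higher in DXp and 36% lower and 30.9% higher in DXp_DXm. With the offsets these shares were 26.7% and 24.9% in DXp and 21.7% and 21.9% in DXp_DXm. Counts of the lists other than the RNAs without a poly(A) tail are given as a description beside these shares. The other RNAs without a poly(A) tail came nearest to the members. All 9 tested were lower, with a median of -8.56 in DXp and -8.72 in DXp_DXm at the bounds. Scarna13, a Cajal-body RNA, had no count in a deletion library, against 192, 78.5 and 140 CPM in WT_EV. Scarna2, of the same class, had none in DXp and 0 and 0.0393 CPM in DXp_DXm, against 157, 108 and 106 CPM. Rnu12, the U12 snRNA of the minor spliceosome, had 0 and 0.0772 CPM in DXp and 0.0415 and 0.0786 CPM in DXp_DXm, against 90.1, 66.8 and 52.6 CPM in WT_EV.

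Variant histone genes, listed here as ones with polyadenylated mRNA, went both ways. Of 10 tested, 6 were lower and 2 higher in DXp, and 6 lower and 1 higher in DXp_DXm, with medians of -1.53 and -1.40. H3f3a, which encodes the replacement histone H3.3, had 521 and 392 CPM in DXp and 296 and 259 CPM in DXp_DXm, against 79.6, 67.6 and 58.1 CPM in WT_EV. It was higher by 2.74 (SE 0.24, adjusted p 7.98e-06, edgeR) and 2.02 (SE 0.24, adjusted p 5.74e-05). H2afx, which encodes the H2A variant phosphorylated at DNA breaks, fell the most of the list. It had 4.45 and 7.76 CPM in DXp and 3.98 and 5.50 CPM in DXp_DXm, against 646, 446 and 1170 CPM in WT_EV, a log2 change of -6.94 (SE 0.56, adjusted p 5.97e-06, edgeR) and -7.31 (SE 0.57, adjusted p 9.38e-06). H2afx is among the 61 other coding genes whose annotated transcripts hold the hairpin pattern, so the name of the list may not hold for all of its mRNA. Whether its mRNA was polyadenylated in these cells was not tested. H2afj, another H2A variant gene, changed by -3.92 and -3.33 and H2afv, which encodes an H2A.Z form, by -2.21 and -2.45. H1fx, a linker variant gene, changed by -2.62 in DXp, where the sign turned with GC offsets (0.75, adjusted p 0.233), and by -6.00 in DXp_DXm.

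Of 15 tested genes for histone gene transcription and 3′ end formation, 5 were lower and 7 higher in DXp, and 4 lower and 7 higher in DXp_DXm. With GC and length offsets these were 6 lower and 2 higher, and 5 lower and 1 higher, and the list's median was -0.35 in DXp and -0.25 in DXp_DXm with the offsets and 0.26 and 0.44 without them. Slbp, the stem-loop binding protein gene, named after its values were seen, had 111 and 101 CPM in DXp and 220 and 132 CPM in DXp_DXm, against 101, 81.7 and 93.9 CPM in WT_EV. Its log2 value was 0.20 in DXp (SE 0.26, adjusted p 0.501, edgeR), and it was higher in DXp_DXm by 0.93 (SE 0.26, adjusted p 0.00918). Npat, the coactivator of histone gene transcription, was higher by 2.38 in DXp and 1.92 in DXp_DXm, and Pou2f1, which encodes Oct1, by 2.48 and 1.87. Npat lost both calls with the offsets (0.42 and 0.39), and Pou2f1 that in DXp_DXm (0.47). Lsm10, a U7 snRNP subunit gene, changed by -3.99 and -3.64, without a call in either under the offsets (-1.11 and -1.13). Sympk, a scaffold of the cleavage complex, changed by -3.59 and -3.48, and Upf1, which takes part in histone mRNA decay, by -3.24 and -3.57. The call of Upf1 in DXp was lost with the offsets (-0.35). Rnu7, the U7 RNA gene, had no count in the 7 libraries.

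Of 18 histone chaperone genes, 8 were lower and 9 higher in DXp and 6 lower and 9 higher in DXp_DXm, and with the offsets 6 lower and 3 higher, and 3 lower and 4 higher. The median was 0.39 in DXp and 0.53 in DXp_DXm, and -0.13 and 0.23 with the offsets. Chaf1a, the large subunit of the chromatin assembly factor that loads histones behind the replication fork, had 127 and 160 counts in DXp and 349 and 280 in DXp_DXm, against 2205, 3442 and 1739 in WT_EV, and changed by -4.30 and -3.29. Ipo4, an importin that carries histones H3 and H4, changed by -4.61 and -3.83. Rbbp7, a histone-binding subunit, was higher by 2.29 and 2.31, and Hat1, which acetylates newly made H4, by 2.09 and 2.06. Daxx, a chaperone of H3.3, changed by -2.95 and -2.13, lost its call in DXp with the offsets (-0.12) and turned in sign in DXp_DXm (0.46, adjusted p 0.164).

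Of 21 DNA replication genes, 11 were lower and 5 higher in DXp and 10 lower and 8 higher in DXp_DXm, and with the offsets 12 lower and 1 higher, and 8 lower and none higher. The median was -1.41 in DXp and -0.60 in DXp_DXm, and -0.97 and -0.32 with the offsets. Mcm5, a subunit of the replicative helicase, had 443 and 545 counts in DXp and 874 and 964 in DXp_DXm, against 9003, 10335 and 5002 in WT_EV. It changed by -4.24 (SE 0.31, adjusted p 4.58e-06, edgeR) and -3.48 (SE 0.30, adjusted p 1.20e-05). Mcm2 and Mcm7, of the same complex, changed by -3.58 and -3.81 in DXp and by -3.20 and -2.37 in DXp_DXm. Tk1, a thymidine kinase gene of S phase, changed by -5.13 and -4.30, and Cdt1, which loads the helicase, by -3.53 and -3.29, with both Cdt1 calls lost under the offsets (-0.41 and -0.39).

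**Figure D5:**
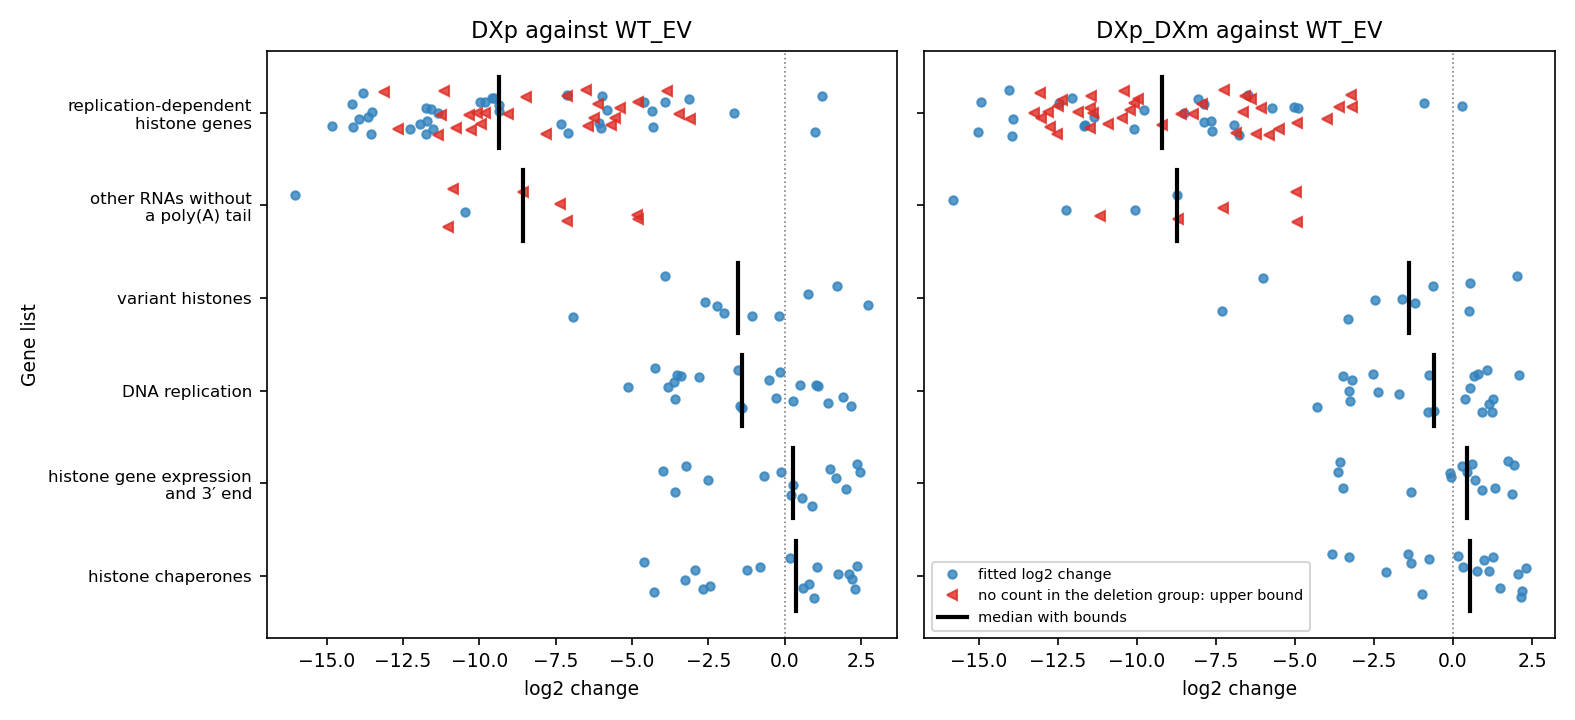
log2 change in DXp (left) and DXp_DXm (right) against WT_EV for the tested genes of each list, 1 point per gene. Triangles are bounds for genes without a count in that deletion group, and black lines are medians with bounds. The medians of the replication-dependent histone genes and the other RNAs without a poly(A) tail lie far to the left of those of the other 4 lists. Single histone genes overlap with genes of those lists.

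Counts of single members carry a limit of sequence. A median of 54.5% of a member's 50-base words also occur in another annotated gene, 36 members share over 50% of them, and 5 share all. Hist2h2aa1 and Hist2h3c1, which share all of theirs, had no count in the 7 libraries. On the same strand 7 members overlap another annotated gene, and on the opposite strand 23 do. How reads that fit several places or genes were counted is not given in the sources used here, so levels of near-identical members are uncertain. Family sums do not depend on how reads were split between members of a family. They would still miss any reads left uncounted or given to genes outside the family.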

How the data were processed

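Total RNA was taken from XEN cells with Trizol and made into stranded libraries, per the labels' protocols. Per the submitters' processing notes, the authors used FastQC, STAR (2.7.9a), featureCounts (2.0.1) and the GRCm38 (mm10) build. The deposited table holds raw counts per gene for the 7 libraries. Symbols, biotypes and gene models came from GENCODE M21, where all 70 members have the same start and end. Genes kept by filterByExpr (15331) were scaled by TMM and tested with edgeR 4.0.16 (quasi-likelihood, robust, R 4.3.3), with group as the only term and Benjamini-Hochberg adjustment; an adjusted p under 0.05 is a call. CPM are TMM-scaled. The biological coefficient of variation was 33.7%. The edgeR steps were run on simulated data in which a small set of genes was lowered and the others were unchanged. Far more genes changed in the real data, so that run does not measure the error of the calls given here. DXp replicates are numbered by the replicate tag of their titles, which also carry the opposite number (D1_DeltXp_1 rep2 and D1_DeltXp_2 rep1). Members and lists were chosen with earlier results of these data known. Named genes were the 3 members per family with the highest WT_EV CPM, tested members not called lower, members with at least 1 CPM in a deletion group, and up to 4 genes per list and comparison with the lowest p; any other gene named (such as Slbp, Rnu7, Hist1h4d, Hist4h4 and the untested members) was chosen after its values were seen. A fold against a group without counts uses 3 counts over the group. Intervals and floors cover counting error only (95%). Alternatives were DESeq2 1.42.0, its size factors in edgeR, no filter, a replicate block, GC and length offsets, scaling on protein-coding genes other than members, and leaving out each library. For the share, the denominator and the member set were varied. The SciPy 1.17.1 permutation test was exact.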

Additional observations from a re-analysis of the deposited data

How the results depend on the processing

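Against WT_EV, members called in DXp (60 in the main analysis) ranged over the alternatives from 50, with GC and length offsets, to 63, without the filter on low counts, and over left-out libraries from 57 to 59, whichever of the 7 was left out. For DXp_DXm (60) the range was 56 to 62, 59 to 60 over left-out libraries of the comparison, and up to 62 without DXp replicate 2, which is in the fit but not in the comparison. Called related genes were 62 in DXp, with 56 to 61 over left-out libraries of the comparison and 62 without DXp_DXm replicate 2, and 60 in DXp_DXm, with 52 to 62, where the offsets left 36. Members called in DXp_DXm against DXp were 0, but 5 by the DESeq2 Wald test and 7 without the filter on low counts; the cause was not tested. Leaving out a library of either deletion group, or WT_EV replicate 1 or 2, left that count at 0, and without WT_EV replicate 3 it was 2, a setting added after seeing the data. With the offsets the sign turned for H1fx in DXp (0.75) and Daxx in DXp_DXm (0.46). The log2 difference in summed share ran from -9.69, without DXp replicate 2, to -8.82, without WT_EV replicate 3, and from -9.35 to -9.25 under the other alternatives, where p stayed at its smallest possible value. The median log2 of all genes was -0.35 in DXp and -0.15 in DXp_DXm, -0.20 and -0.10 with DESeq2 size factors, -0.08 and 0.02 with the offsets, and -0.41 and -0.23 when scaled on protein-coding genes. Same-numbered DXp and DXp_DXm libraries correlated at -0.20 in their deviations, and crossed pairs at 0.20. With 2 libraries in each deletion group these values mirror each other by construction. They cannot show whether the samples share more than a number. The replicate block gave 60 and 61 called members against WT_EV and 0 between the deletions, and over all genes 49 lower and 43 higher between the deletions, against 25 and 43 without it. The DESeq2 Wald test gave 620 lower and 547 higher there (4.79% and 4.23% of genes tested). Leaving out the filter gave 584 and 852 (2.11% and 3.07%), and leaving out WT_EV replicate 3 gave 222 and 258 (1.47% and 1.71%). Hist1h2bg in DXp and Hist1h3i in both comparisons changed their call as given above. A crossed pairing, which follows the other number in the DXp titles, was added after seeing the data. It gave 3 members called between the deletions, and 689 genes lower and 884 higher over all genes (4.49% and 5.77%). Which pairing holds, if any, was not tested. At 0 to 3 counts per group in a deletion group, depth limits the size of single changes. The planned comparison of Hist2 members with the wild-type clones was not run, as no member has a row there.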
